A study of Homo sapiens with 8 samples.

Results

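The unfolded protein response and the ATF4 amino acid response were followed through 40 genes in single MDA-MB-231 cells, a human triple-negative breast cancer line, with and without ionizing radiation and with and without knockdown of ATM. The genes were taken by symbol. Of these, 22 formed an endoplasmic reticulum (ER) arm of ATF6 and XBP1 targets with their sensors, and 18 formed an ATF4 arm of stress factors, amino acid synthesis enzymes and amino acid transporters. The 8 tables listed 15041 genes in all, and 39 of the 40 members were among them. The level of HYOU1, an ER chaperone gene, was not analysed here. The groups, with 2 libraries each, were ATM knockdown cells given 5 Gy and collected 4 h later, untreated ATM knockdown cells, wild-type (WT) cells given the same dose and time, and untreated WT cells. All were kept in the same serum-containing medium. ATM is a kinase that breaks in both DNA strands activate, and how it was knocked down is not given in the sources used here. WT library titles had a different ending from knockdown titles, so genotype and any difference in handling cannot be told apart. The labels do not say whether replicate libraries stem from separate cultures, so p-values rest on a spread between libraries that may be technical only.

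Proteins that misfold in the ER are sensed by membrane proteins encoded by ATF6, ERN1 (IRE1) and EIF2AK3 (PERK). ATF6 is cleaved to a transcription factor, IRE1 splices XBP1 mRNA into one that encodes another, and both raise chaperone and degradation genes. PERK phosphorylates the translation factor eIF2 alpha, which slows translation at large while ATF4 mRNA is translated more, and GCN2, HRI and PKR do the same on amino acid shortage, haem shortage and viral RNA. ATF4 then raises genes that take up and make amino acids. Splicing of XBP1, cleavage of ATF6 and translation of ATF4 are not read by counts per gene.

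The promoter windows of the arms held different elements. RefSeq promoter windows (GRCh38.p14, 250 bases before to 50 bases after an annotated start) were found for 36 of the 40 members. A gene can have several such starts, and the 54 windows of the members were searched on both strands. The ER stress element, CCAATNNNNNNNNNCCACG, was present for 7 of 21 ER arm genes (CALR, CANX, CRELD2, HSP90B1, HSPA5, PDIA6 and XBP1) and for 0 of 15 ATF4 arm genes, against 0.0916% of the 27305 genes with a window. Another form, ATTGG and CCACG with any base between them, was present for 3 of 21 ER arm genes (HERPUD1, HYOU1 and SDF2L1), 0 of 15 ATF4 arm genes and 0.0696% of all genes. The unfolded protein response element TGACGTGG was found for HYOU1 and no other member, and for 0.927% of all genes. The core of the C/EBP-ATF response element, TGATGNAA, was present for 5 of 15 ATF4 arm genes (ASNS, ATF3, CHAC1, SLC1A5 and SLC3A2), for 1 of 21 ER arm genes (HERPUD1) and for 4.46% of all genes. The members were partly known for such elements, and a match in these windows is a description of letters, not of binding. The windows below belong to members that both held an element and passed in a contrast. Capitals mark the matched element. CALR, CANX, CRELD2, HSP90B1 and PDIA6 held the ER stress element and did not pass in any contrast. A link between element and level was not tested.
HSPA5, chr9:125241294-125241593, minus strand, ER stress element: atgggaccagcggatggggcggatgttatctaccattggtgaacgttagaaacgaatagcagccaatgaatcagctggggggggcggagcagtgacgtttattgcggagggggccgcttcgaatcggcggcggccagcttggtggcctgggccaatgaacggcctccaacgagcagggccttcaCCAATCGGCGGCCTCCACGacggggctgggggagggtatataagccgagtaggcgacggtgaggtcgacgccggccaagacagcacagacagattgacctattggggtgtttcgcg
XBP1, chr22:28800520-28800819, minus strand, ER stress element: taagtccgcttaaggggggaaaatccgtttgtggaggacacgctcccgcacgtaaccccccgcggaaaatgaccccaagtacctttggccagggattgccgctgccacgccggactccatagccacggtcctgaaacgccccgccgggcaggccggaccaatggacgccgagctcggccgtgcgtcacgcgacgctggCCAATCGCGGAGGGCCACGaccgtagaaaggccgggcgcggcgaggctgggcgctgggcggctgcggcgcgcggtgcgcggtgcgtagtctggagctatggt
SDF2L1, chr22:21642052-21642351, plus strand, the other form on the opposite strand: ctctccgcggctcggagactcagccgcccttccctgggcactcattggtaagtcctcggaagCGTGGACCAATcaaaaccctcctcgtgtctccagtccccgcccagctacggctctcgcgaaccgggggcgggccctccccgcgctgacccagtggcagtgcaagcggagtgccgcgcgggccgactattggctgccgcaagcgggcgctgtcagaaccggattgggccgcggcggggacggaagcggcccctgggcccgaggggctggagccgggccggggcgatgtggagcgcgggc
SLC3A2, chr11:62881449-62881748, plus strand, C/EBP-ATF core on the opposite strand: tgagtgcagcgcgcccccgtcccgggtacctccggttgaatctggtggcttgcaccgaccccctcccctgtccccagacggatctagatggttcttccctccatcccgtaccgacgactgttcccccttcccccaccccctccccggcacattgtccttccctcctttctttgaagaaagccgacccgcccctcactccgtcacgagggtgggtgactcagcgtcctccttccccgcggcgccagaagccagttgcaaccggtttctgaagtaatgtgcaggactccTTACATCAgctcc
SLC1A5, chr19:46784765-46785064, minus strand, C/EBP-ATF core: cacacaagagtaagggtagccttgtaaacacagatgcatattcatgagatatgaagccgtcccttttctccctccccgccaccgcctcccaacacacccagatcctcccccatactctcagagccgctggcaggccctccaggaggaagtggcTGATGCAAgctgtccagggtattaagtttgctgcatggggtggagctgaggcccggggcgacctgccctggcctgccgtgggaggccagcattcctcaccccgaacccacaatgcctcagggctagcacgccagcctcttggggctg
XBP1, SLC3A2 and SLC1A5 have further windows, and those held none of these letters. The same holds for the windows of SEC61A1, SEL1L, SLC7A5, PSAT1, MTHFD2 and SLC38A2, which also passed in a contrast. The printed windows of SLC3A2 and SLC1A5 lie inside the gene, at a start other than the outermost one. For both genes the window at the outermost annotated start held no match.

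After filtering, 363 of 378 cells were kept, and the 15 left out were all knockdown cells. The kept cells of a library held 9321268 counts (irradiated WT replicate 1) to 24256471 counts (untreated WT replicate 1). Levels below are counts per 1000000 counts of a library (CPM), and changes are log2 fold changes with their SE from edgeR's quasi-likelihood test, with Benjamini-Hochberg adjustment over 12456 genes. ATM was at 13.0 and 14.03 CPM in irradiated knockdown, 13.8 and 33.0 in untreated knockdown, 28 and 33.2 in irradiated WT and 57.9 and 31.1 CPM in untreated WT libraries. Untreated knockdown replicate 2 was thus level with WT libraries, and the genotype difference did not pass (adjusted p = 0.109 irradiated and 0.157 untreated). The defining markers VIM, CD44, KRT8, KRT18 and EGFR were detected in all libraries, but SPARC was at 1.45 CPM or less. Of the markers expected to be low, PGR and CDH1 were at 2.02 CPM or less, while ERBB2 was at 8.06 to 25.5 CPM in the 8 libraries. KRT8 and KRT18 were lower and CD44 higher in knockdown than in WT libraries of either treatment, and the part of such line differences in the results was not tested. The leukocyte marker PTPRC reached 1.80 CPM at most.

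More members differed between genotypes than between irradiated and untreated cells. Between untreated knockdown and untreated WT libraries 13 of the 39 tested members passed an adjusted p of 0.05, beside 9.94% of all genes, with 11 higher (4.83% of all genes) and 2 lower (5.11%). Between irradiated knockdown and irradiated WT libraries 6 passed (5.1% of all genes), with 5 higher (2.18%) and 1 lower (2.92%). With irradiation 3 members rose and 0 fell in WT cells, where 1.65% of all genes passed (0.907% higher and 0.739% lower), and 0 passed in knockdown cells, where 0.225% of all genes did (0.0321% higher and 0.193% lower). In the knockdown, 10 members had an unadjusted p under 0.05 in edgeR (8.86% of all genes), 5 in each direction. DESeq2 and limma on the mean CPM per cell each called 1 member there, of 177 and 122 genes called in all. Averaged over both genotypes 2 members rose and 0 fell with irradiation (1.49% of all genes, 0.642% higher and 0.851% lower). The irradiation effect differed between genotypes for 1 member, PSAT1, lower in the knockdown (0.185% of all genes, 0.0803% lower and 0.104% higher). The untreated WT libraries enter several of these contrasts, so the counts are not independent of each other. The members were chosen with earlier results of these data known, so their counts beside the share of all genes are a description only.

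**Figure D1:**
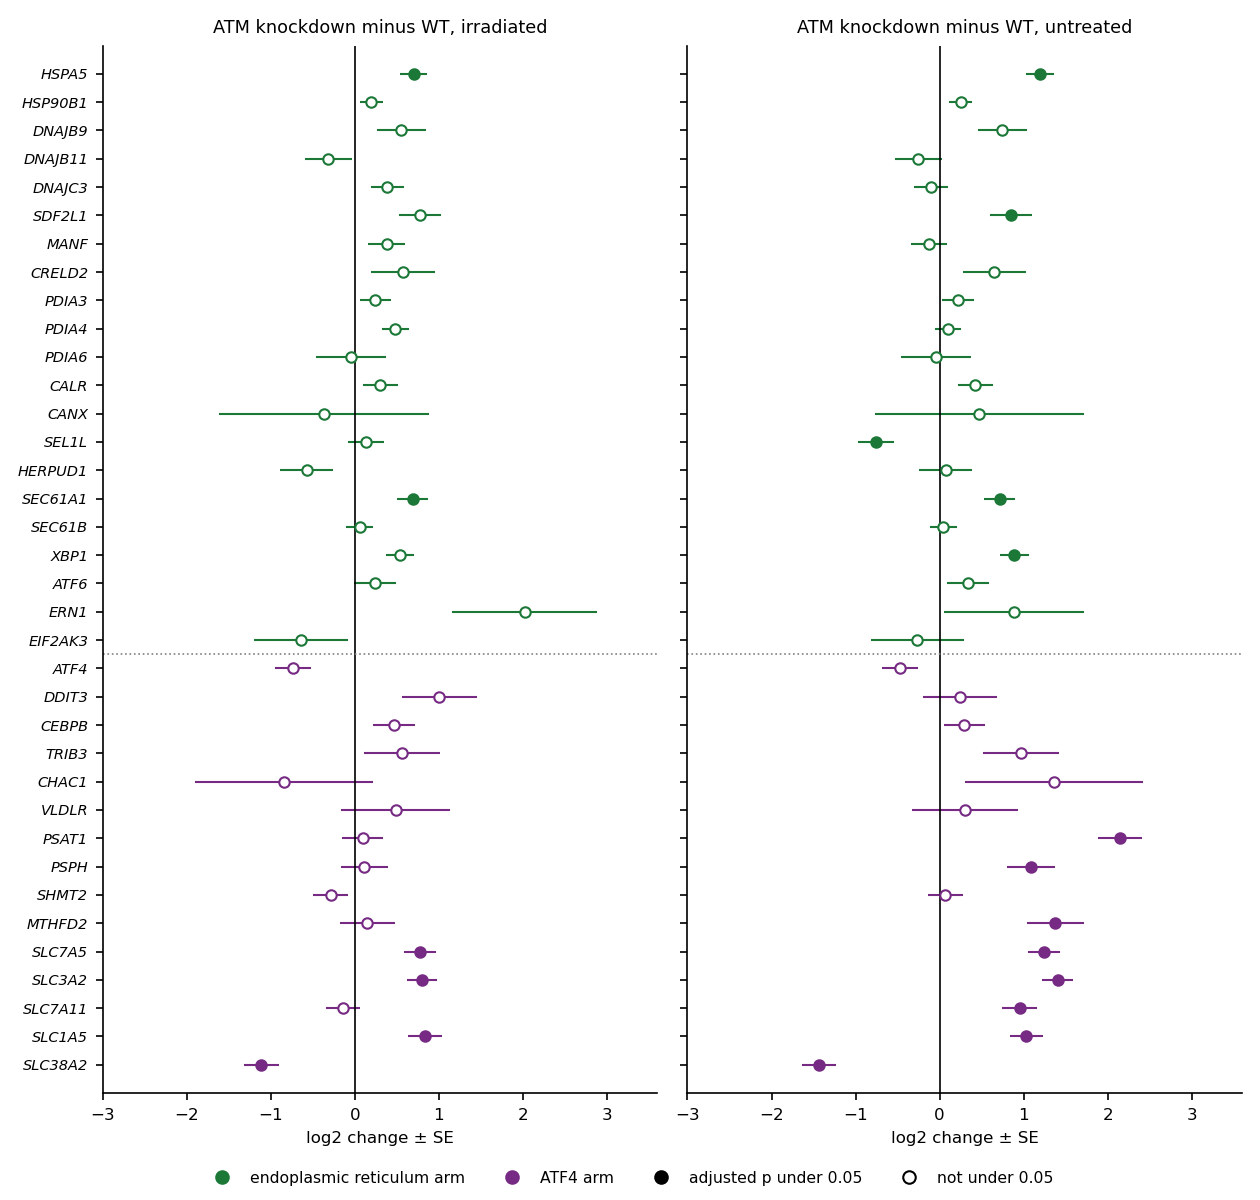
Log2 change of 36 members between ATM knockdown and WT, irradiated (left) and untreated (right), with its SE from the fit of 8 libraries. Filled points passed an adjusted p of 0.05, 6 on the left and 13 on the right; ASNS, PHGDH and ATF3, each at 0 in at least 1 library, are not drawn.

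In the ER arm, the central lumenal chaperone and the XBP1 transcript were higher in knockdown cells. HSPA5 (BiP, ENSG00000044574.7, chromosome 9, 125234853 to 125241330, GRCh38), which binds unfolded chains and holds the sensors inactive, was at 684 and 754 CPM in irradiated knockdown libraries, 948 and 708.5 in untreated knockdown, 456 and 386 in irradiated WT and 357 and 339.8 CPM in untreated WT. Every knockdown library lay above every WT library. ATF6, PDIA4, CALR and CRELD2, which did not pass in any contrast, separated in this way too. The share of all genes that do so was not computed, so such separation is a description only. The log2 change was 0.70 (SE 0.16, adjusted p = 0.0190) between irradiated and 1.196 (SE 0.16, adjusted p = 0.000297) between untreated cells, and only the second was kept under all alternatives. Leaving out replicate 2 of irradiated knockdown or of irradiated WT gave the irradiated difference an adjusted p of 0.108 and 0.132.

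XBP1 (ENSG00000100219.16, chromosome 22, 28794555 to 28800597), which encodes the factor that IRE1 splicing activates, was at 199 and 203 CPM in irradiated knockdown, 262 and 271 in untreated knockdown, 144 and 119.7 in irradiated WT and 146 and 131 CPM in untreated WT libraries. Again no knockdown library overlapped a WT library. It rose by 0.89 (SE 0.17, adjusted p = 0.00362) between untreated knockdown and WT cells, a call kept under all alternatives, and the difference between irradiated cells, 0.54 (SE 0.17), did not pass (adjusted p = 0.0850) but did by DESeq2 (0.0241) and limma (0.0112). The sensor genes themselves did not pass in any contrast. ATF6 was at 67.6 and 80.5 CPM in irradiated knockdown, 72.5 and 72.3 in untreated knockdown, 54.7 and 64.4 in irradiated WT and 66.95 and 43.4 CPM in untreated WT libraries. ERN1 gave 9.44, 6.91, 7.13 and 7.47 CPM in the irradiated and then the untreated knockdown libraries, and 1.61, 2.19, 5.98 and 1.65 CPM in the irradiated and then the untreated WT libraries. All 4 knockdown libraries lay above all 4 WT libraries for ERN1, at a low count, with changes of 2.03 (SE 0.86, adjusted p = 0.217) irradiated and 0.88 (SE 0.83, adjusted p = 0.557) untreated. EIF2AK3 gave 6.66, 6.19, 9.94 and 12.6 CPM in the irradiated and then the untreated knockdown libraries and 8.80, 10.3, 7.96 and 18.0 CPM in the WT libraries in the same order, which overlap.

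The HSP70 and HSP90 partners of the lumen did not all move with HSPA5. Of the 8 measured chaperones and cofactors, 2 were higher in untreated knockdown than untreated WT cells (HSPA5 and SDF2L1), beside 4.83% of all genes. Between irradiated cells 1 was higher in the knockdown (HSPA5), beside 2.18% of all genes. SDF2L1, which with DNAJB11 keeps unfolded chains from aggregating, was at 89.8 and 91.5 CPM in irradiated knockdown, 60.2 and 61.0 in untreated knockdown, 53.6 and 47.4 in irradiated WT and 27.0 and 37.45 CPM in untreated WT libraries. Irradiated libraries lay above untreated ones in each genotype, and knockdown above WT at each treatment. Its untreated genotype difference of 0.86 (SE 0.25, adjusted p = 0.0410) was lost without untreated WT replicate 1 (0.239), either untreated knockdown library (0.0983 and 0.0953) or either irradiated knockdown library (0.0617 and 0.0633). It was also lost with the compared groups alone (0.129) and without the largest cells (0.196). Its irradiation change averaged over genotypes, 0.63 (SE 0.18), did not pass (adjusted p = 0.0931), but did by DESeq2 (0.0271), with no filter (0.0411) and without untreated WT replicate 2 (0.0316). Its change between irradiated genotypes, 0.77 (SE 0.25), did not pass either (adjusted p = 0.0938), but did by DESeq2 (0.0416), with the compared groups alone (0.0465) and at an average log2 CPM of at least 5 (0.0435). HSP90B1 (GRP94), the ER HSP90, was at 817 and 866 CPM in irradiated knockdown, 917 and 910.4 in untreated knockdown, 748.5 and 652 in irradiated WT and 824 and 654 CPM in untreated WT libraries. Its changes of 0.20 (SE 0.14) irradiated and 0.25 (SE 0.14) untreated did not pass (adjusted p = 0.490 and 0.283). DNAJB9, a cofactor that returns HSPA5 to IRE1 and is a well known XBP1 target, was at 42.95 and 45.7 CPM in irradiated knockdown, 52.7 and 46.2 in untreated knockdown, 24.6 and 32.8 in irradiated WT and 30.3 and 26.3 CPM in untreated WT libraries. These libraries do not overlap between genotypes, but the changes of 0.56 (SE 0.29) and 0.75 (SE 0.29) did not pass (adjusted p = 0.328 and 0.117). DNAJB11, DNAJC3, MANF and CRELD2 did not pass in any contrast, and over their libraries ranged between 16.0 CPM (CRELD2, untreated WT replicate 1) and 119 CPM (MANF, irradiated knockdown replicate 2).

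Disulfide isomerases and lectin chaperones, which fold and check secreted proteins, did not pass in any contrast. PDIA4 came nearest. It was at 318 and 353 CPM in irradiated knockdown, 279 and 246 in untreated knockdown, 237 and 219.8 in irradiated WT and 246 and 225 CPM in untreated WT libraries, with a change of 0.48 (SE 0.16, adjusted p = 0.0954; 0.0305 by DESeq2) between irradiated knockdown and WT cells. The irradiated knockdown libraries were the highest of the 8. PDIA3, PDIA6 and CALR had genotype changes between -0.04 (PDIA6, irradiated) and 0.42 (CALR, untreated). CANX was listed in every library with 27 to 63 counts, 1.39 to 3.97 CPM, and its genotype changes had an SE of 1.25 in either treatment.

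The translocon and degradation genes split. SEC61A1, the channel subunit through which chains enter the ER, was at 154 and 192 CPM in irradiated knockdown, 178 and 166 in untreated knockdown, 96.6 and 108 in irradiated WT and 101 and 99.9 CPM in untreated WT libraries. No knockdown library overlapped a WT one. The changes of 0.69 (SE 0.19, adjusted p = 0.0444) irradiated and 0.72 (SE 0.18, adjusted p = 0.0222) untreated both passed. The irradiated call was lost without any 1 of the 4 irradiated libraries (adjusted p between 0.0614 and 0.417). The untreated call was lost without either untreated WT library (0.0603 and 0.0628) or untreated knockdown replicate 1 (0.0995), with the compared groups alone (0.0541) and without the largest cells (0.0888). SEC61B, another channel subunit, did not pass, with changes of 0.06 irradiated and 0.04 untreated. SEL1L, the scaffold of the HRD1 degradation complex, fell in untreated knockdown cells. It was at 71.5 and 69.4 CPM in irradiated knockdown, 62.3 and 55.3 in untreated knockdown, 57.8 and 64.7 in irradiated WT and 97.5 and 94.2 CPM in untreated WT libraries, so that the untreated WT libraries stood above the other 6. The untreated difference of -0.76 (SE 0.22, adjusted p = 0.0355) was lost without either untreated WT library (0.101 each), either untreated knockdown library (0.0751 and 0.182), or either irradiated knockdown library (0.0582 and 0.0567). It was also lost without a scaling factor (0.0505), with the compared groups alone (0.0821) and without the largest cells (0.109). HERPUD1, a degradation cofactor that both ATF6 and ATF4 are known to raise, was at 49.7 and 50.02 CPM in irradiated knockdown, 117 and 56.1 in untreated knockdown, 78.5 and 62.5 in irradiated WT and 96.7 and 62.0 CPM in untreated WT libraries. The irradiated knockdown libraries were the lowest of the 8, but the changes of -0.79 (SE 0.32) against untreated knockdown and -0.57 (SE 0.32) against irradiated WT did not pass (adjusted p = 0.464 and 0.367). Without untreated knockdown replicate 2 the change in knockdown was -1.25 and passed (0.0473).

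**Figure D2:**
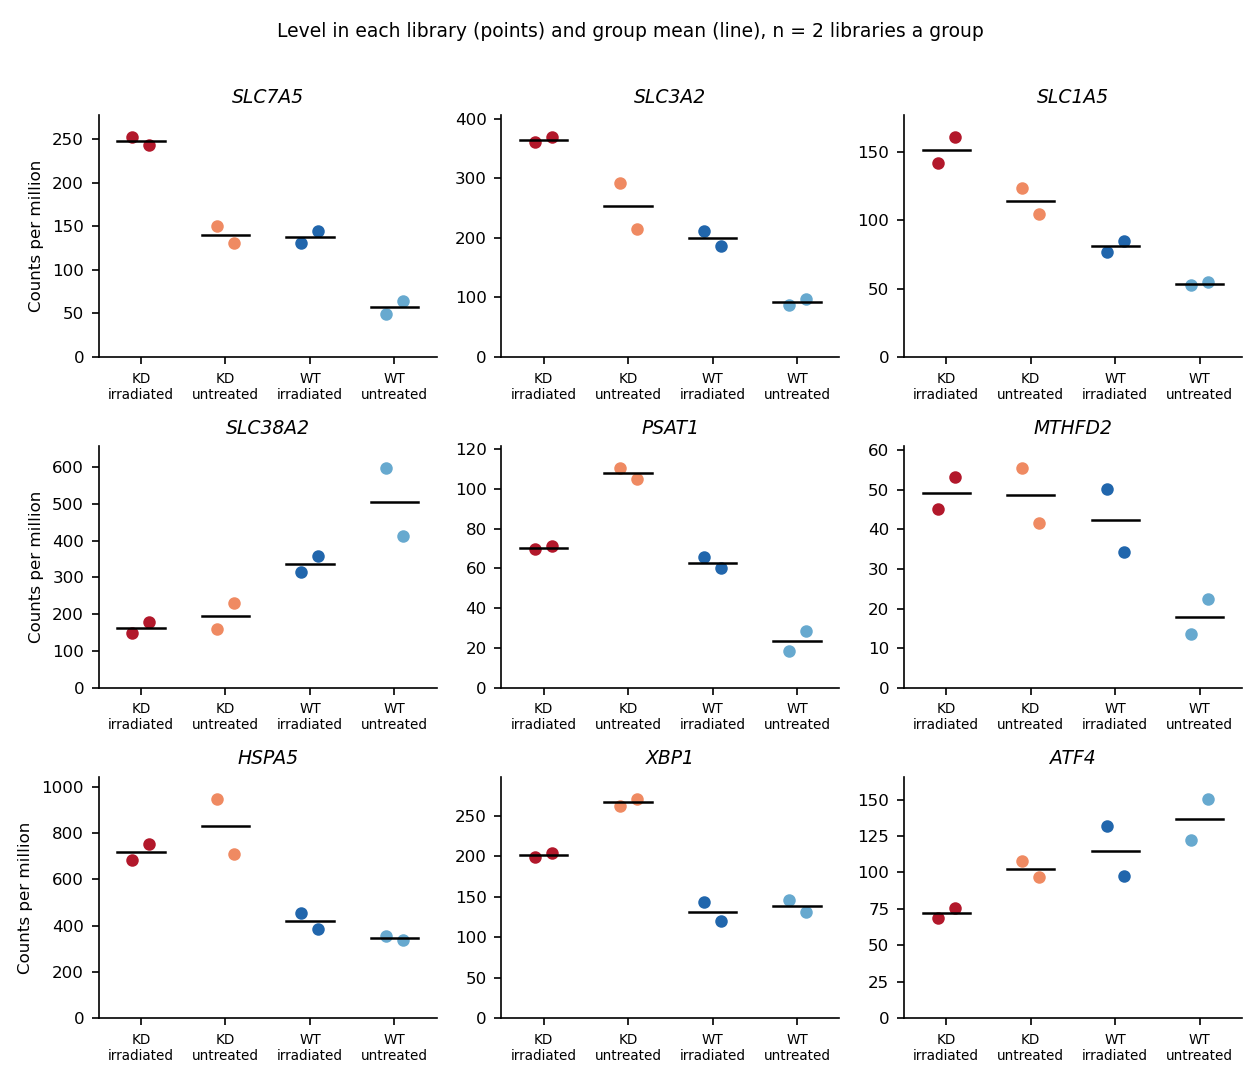
Level of 9 members in each of the 8 libraries (points, CPM, axes from 0) with the mean of the 2 libraries of a group (line). SLC7A5, SLC3A2 and SLC1A5 are highest in irradiated knockdown and lowest in untreated WT libraries, the group means of SLC38A2 and ATF4 run the other way, and HSPA5 and XBP1 separate the genotypes.

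In the ATF4 arm, amino acid transporters gave the clearest differences. SLC7A5 (LAT1, ENSG00000103257.8, chromosome 16, 87830023 to 87869488), the carrier of large neutral amino acids such as leucine, was at 252 and 243 CPM in irradiated knockdown, 149.8 and 131 in untreated knockdown, 131 and 144 in irradiated WT and 49.3 and 64.4 CPM in untreated WT libraries. Irradiated libraries lay above untreated ones in both genotypes. The change with irradiation was 1.30 (SE 0.19, adjusted p = 0.00446) in WT and 0.83 (SE 0.19, adjusted p = 0.114) in knockdown cells, and 1.06 (SE 0.14, adjusted p = 0.000742) averaged over both. The difference between these effects, -0.47 (SE 0.27), did not pass (adjusted p = 0.614). The WT change was not called when WT libraries were fitted alone (adjusted p = 0.0607), while the knockdown change was called when knockdown libraries were fitted alone (0.0423), by DESeq2 (0.00606), by limma on the mean CPM per cell (0.0126), without the largest cells (0.0372), with no filter (0.00720), and without untreated WT replicate 1 (0.0168) or 2 (0.0145). Between genotypes SLC7A5 was higher in knockdown cells by 0.78 (SE 0.19, adjusted p = 0.0271) when irradiated and 1.25 (SE 0.19, adjusted p = 0.000815) when untreated. The irradiated call was lost without any 1 of the 4 irradiated libraries (adjusted p between 0.0789 and 0.133).

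SLC3A2 (CD98 heavy chain, ENSG00000168003.16, chromosome 11, 62856102 to 62888875), the glycoprotein that SLC7A5 and SLC7A11 need at the membrane, followed the same order of groups. It was at 361 and 369 CPM in irradiated knockdown, 292 and 215 in untreated knockdown, 211 and 187 in irradiated WT and 87.2 and 97.2 CPM in untreated WT libraries. No group overlapped another. Irradiation changed it by 1.13 (SE 0.18, adjusted p = 0.00846) in WT and 0.53 (SE 0.18, adjusted p = 0.381) in knockdown cells, and by 0.83 (SE 0.13, adjusted p = 0.00384) on average. The WT call was lost with WT libraries alone (0.0543) and without the largest cells (0.0992). The genotype changes were 0.80 (SE 0.18, adjusted p = 0.0185) irradiated and 1.40 (SE 0.18, adjusted p = 0.000227) untreated. The irradiated one was lost when either irradiated knockdown library (0.0567 and 0.0927) or replicate 2 of irradiated WT (0.117) was left out.

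SLC1A5 (ASCT2, ENSG00000105281.12, chromosome 19, 46774883 to 46788594), a glutamine and neutral amino acid exchanger, was at 142 and 161 CPM in irradiated knockdown, 124 and 105 in untreated knockdown, 76.8 and 85.2 in irradiated WT and 52.4 and 54.9 CPM in untreated WT libraries. Its genotype changes passed, 0.83 (SE 0.20, adjusted p = 0.0253) irradiated and 1.03 (SE 0.20, adjusted p = 0.00417) untreated, and its averaged irradiation change of 0.52 (SE 0.14) did not (adjusted p = 0.0901). That change passed by DESeq2 (0.0201), with no filter (0.0422) and without the largest cells (0.67, adjusted p = 0.0331). The irradiated call was lost without any 1 of the 4 irradiated libraries (adjusted p between 0.0689 and 0.231). SLC7A11 (xCT, the cystine and glutamate exchanger) was at 115 and 104 CPM in irradiated knockdown, 181 and 163 in untreated knockdown, 119 and 110.4 in irradiated WT and 102 and 68.9 CPM in untreated WT libraries. The untreated knockdown libraries stood above all others, by 0.96 (SE 0.21, adjusted p = 0.00899) over untreated WT, and this call was lost without untreated WT replicate 2 (0.0686). Between irradiated cells the change was -0.14 (SE 0.21, adjusted p = 0.791). With irradiation SLC7A11 changed by -0.65 (SE 0.21, adjusted p = 0.320) in knockdown and 0.45 (SE 0.21, adjusted p = 0.352) in WT cells. The difference of these effects, -1.09 (SE 0.29), did not pass (adjusted p = 0.221), but did by DESeq2 (0.0217), with no filter (0.0301) and without untreated WT replicate 1 (-1.39, adjusted p = 0.0193).

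SLC38A2 (SNAT2, ENSG00000134294.13, chromosome 12, 46358189 to 46372867), a sodium-coupled neutral amino acid transporter known to be raised by amino acid shortage and by hypertonic medium, moved against the other carriers. It was at 147 and 179 CPM in irradiated knockdown, 159 and 230.0 in untreated knockdown, 315 and 357 in irradiated WT and 598 and 413 CPM in untreated WT libraries. Every knockdown library lay below every WT library. It fell by 1.11 (SE 0.20, adjusted p = 0.00518) between irradiated knockdown and WT cells and by 1.43 (SE 0.20, adjusted p = 0.000465) between untreated ones. It was the only member whose call was kept under all alternatives in both genotype contrasts. With irradiation it changed by -0.56 (SE 0.20) in WT cells, which did not pass (adjusted p = 0.193) but did with no filter (0.0303). Without untreated WT replicate 2 this change was -0.80. Averaged over both genotypes its irradiation change did not pass in the shared fit, but did with no filter (-0.41, adjusted p = 0.0244). Without untreated WT replicate 2 or untreated knockdown replicate 1 the averaged change was -0.52 and -0.53.

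A synthesis enzyme gave the difference between genotypes in the irradiation effect. PSAT1 (ENSG00000135069.13, chromosome 9, 78297143 to 78330093), the aminotransferase of serine synthesis, was at 69.5 and 71.1 CPM in irradiated knockdown, 110.4 and 105 in untreated knockdown, 65.5 and 60.1 in irradiated WT and 18.2 and 28.4 CPM in untreated WT libraries. The untreated libraries stood apart by genotype, knockdown highest and WT lowest of all, and the irradiated libraries lay between them. It rose with irradiation by 1.45 (SE 0.26, adjusted p = 0.0148) in WT cells. In knockdown cells the irradiated libraries were lower, by -0.61 (SE 0.25), which did not pass (adjusted p = 0.474). The difference of the irradiation effects was -2.06 (SE 0.36, adjusted p = 0.0345). It was -1.14 without the largest cells (adjusted p = 0.460) and -1.55 by limma on the mean CPM per cell (0.191), and did not pass in either. The WT change was also lost without the largest cells (0.151) and with WT libraries alone (0.0911). Between genotypes PSAT1 was higher by 2.15 (SE 0.26, adjusted p = 0.000124) in untreated knockdown cells, kept under all alternatives, and by 0.09 (SE 0.25, adjusted p = 0.904) between irradiated cells, which did not pass. GENCODE names 4 PSAT1 pseudogenes, which could share reads with it. The same limit holds for ATF4 (4 named pseudogenes), SLC7A5 (2), PDIA3 (2), XBP1 (1) and PSPH (1).

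The other serine and folate enzymes had smaller or fewer differences. PSPH, the phosphatase that completes serine synthesis, was at 45.2 and 39.5 CPM in irradiated knockdown, 64.4 and 49.7 in untreated knockdown, 39.7 and 34.9 in irradiated WT and 24.0 and 27.7 CPM in untreated WT libraries. MTHFD2, the mitochondrial folate dehydrogenase, was at 45.2 and 53.3 CPM in irradiated knockdown, 55.5 and 41.7 in untreated knockdown, 50.3 and 34.4 in irradiated WT and 13.6 and 22.4 CPM in untreated WT libraries. For both genes the untreated WT libraries lay below the other 6. PSPH was higher by 1.09 (SE 0.28, adjusted p = 0.0241) and MTHFD2 by 1.38 (SE 0.34, adjusted p = 0.0168) in untreated knockdown than untreated WT cells. Both calls were lost without untreated WT replicate 1 (0.104 for PSPH and 0.0893 for MTHFD2), untreated knockdown replicate 1 (0.147 and 0.0685) or the largest cells (0.173 and 0.175), and with the compared groups alone (0.0729 and 0.0649). The change of MTHFD2 with irradiation in WT cells, 1.25 (SE 0.34), did not pass (adjusted p = 0.0816), and passed by DESeq2 (0.0186) and without untreated WT replicate 2 (0.0236) or either untreated knockdown library (0.0380 and 0.0336). MTHFD2 has 7 named pseudogenes and shares its last exon bases with SLC4A5, on the opposite strand. SHMT2, the mitochondrial serine hydroxymethyltransferase, did not pass: it was at 74.7 and 83.6 CPM in irradiated knockdown, 81.9 and 105 in untreated knockdown, 92.6 and 91.3 in irradiated WT and 83.1 and 88.5 CPM in untreated WT libraries.

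PHGDH, which opens serine synthesis, and ASNS, asparagine synthetase and a standard ATF4 target, were almost not detected. PHGDH had 52 and 0 counts in irradiated knockdown, 2 and 0 in untreated knockdown, 50 and 120 in irradiated WT and 0 and 4 counts in untreated WT libraries. Its irradiation contrasts did not pass (adjusted p = 0.630 in knockdown, 0.273 in WT cells and 0.155 averaged). Limma on the mean CPM per cell called the WT one (0.0389), and DESeq2 (0.0150) and the fit with no filter (0.0218) called the averaged one. ASNS had 12 counts in irradiated knockdown replicate 2, 31 in untreated knockdown replicate 1 and 0 in every other library, and 1 cell held 69.8% of them. ASNS has 4 named pseudogenes and shares exon bases at its end with another annotated gene, and the counting can lose or split such reads.

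None of the 7 stress factors and effectors, the ATF4 transcript among them, passed in any contrast in the edgeR fit used throughout. Some of them were called in other fits, as given below. Between genotypes 5 of the 7 had higher fitted levels in irradiated and 6 in untreated knockdown cells (median log2 change 0.46 and 0.30), and ATF4 was lower in both. ATF4 was at 68.9 and 75.3 CPM in irradiated knockdown, 108 and 96.6 in untreated knockdown, 132 and 97.6 in irradiated WT and 122 and 151 CPM in untreated WT libraries. The knockdown changes of -0.74 (SE 0.22, adjusted p = 0.0645) irradiated and -0.47 (SE 0.21, adjusted p = 0.193) untreated did not pass. The first was called by DESeq2 (0.0177) and limma (0.0255). It was also called by edgeR with no filter (0.0166) and at an average log2 CPM of at least 5 (0.0301). DDIT3 (CHOP), the factor tied to death under ER stress, was at 25.2 and 21.3 CPM in irradiated knockdown, 21.7 and 16.5 in untreated knockdown, 11.05 and 10.98 in irradiated WT and 21.6 and 9.56 CPM in untreated WT libraries. TRIB3, a pseudokinase that damps ATF4, was at 23.6 and 27.0 CPM in irradiated knockdown, 46.1 and 17.2 in untreated knockdown, 18.3 and 14.3 in irradiated WT and 12.3 and 18.8 CPM in untreated WT libraries. Neither passed in any contrast, although without untreated knockdown replicate 2 TRIB3 passed between untreated genotypes (1.53, adjusted p = 0.0297), and the MARS gene overlaps the end of DDIT3.

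ATF3, a stress-induced factor, was at 3.53 and 6.65 CPM in irradiated knockdown, 29.5 and 15.9 in untreated knockdown, 7.83 and 0 in irradiated WT and 1.94 and 0.250 CPM in untreated WT libraries. The untreated knockdown libraries stood above the other 6, but the untreated genotype change of 4.31 (SE 1.41) did not pass (adjusted p = 0.0672). It passed without a filter (7.54e-06), by limma on the mean CPM per cell (0.0143), with the compared groups alone (0.0207) without the largest cells (0.0240) and without any 1 of 6 libraries (adjusted p between 0.00146 and 0.0247), and 1 cell held 26.7% of all ATF3 counts. With no filter edgeR also called the ATF3 difference of irradiation effects, knockdown minus WT (-3.96, adjusted p = 0.0241). CHAC1, a glutathione-degrading enzyme, gave 3.33, 1.08, 2.03 and 11.4 CPM in the irradiated and then the untreated knockdown libraries and 3.75, 3.76, 3.13 and 1.85 CPM in the WT libraries in that order. CEBPB and VLDLR, a partner of ATF4 and a lipoprotein receptor gene, did not pass in any contrast either. Their averaged irradiation changes were -0.49 (SE 0.17, adjusted p = 0.191) and -1.45 (SE 0.46, adjusted p = 0.141), the VLDLR change passing by DESeq2 (0.0386).

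**Figure D3:**
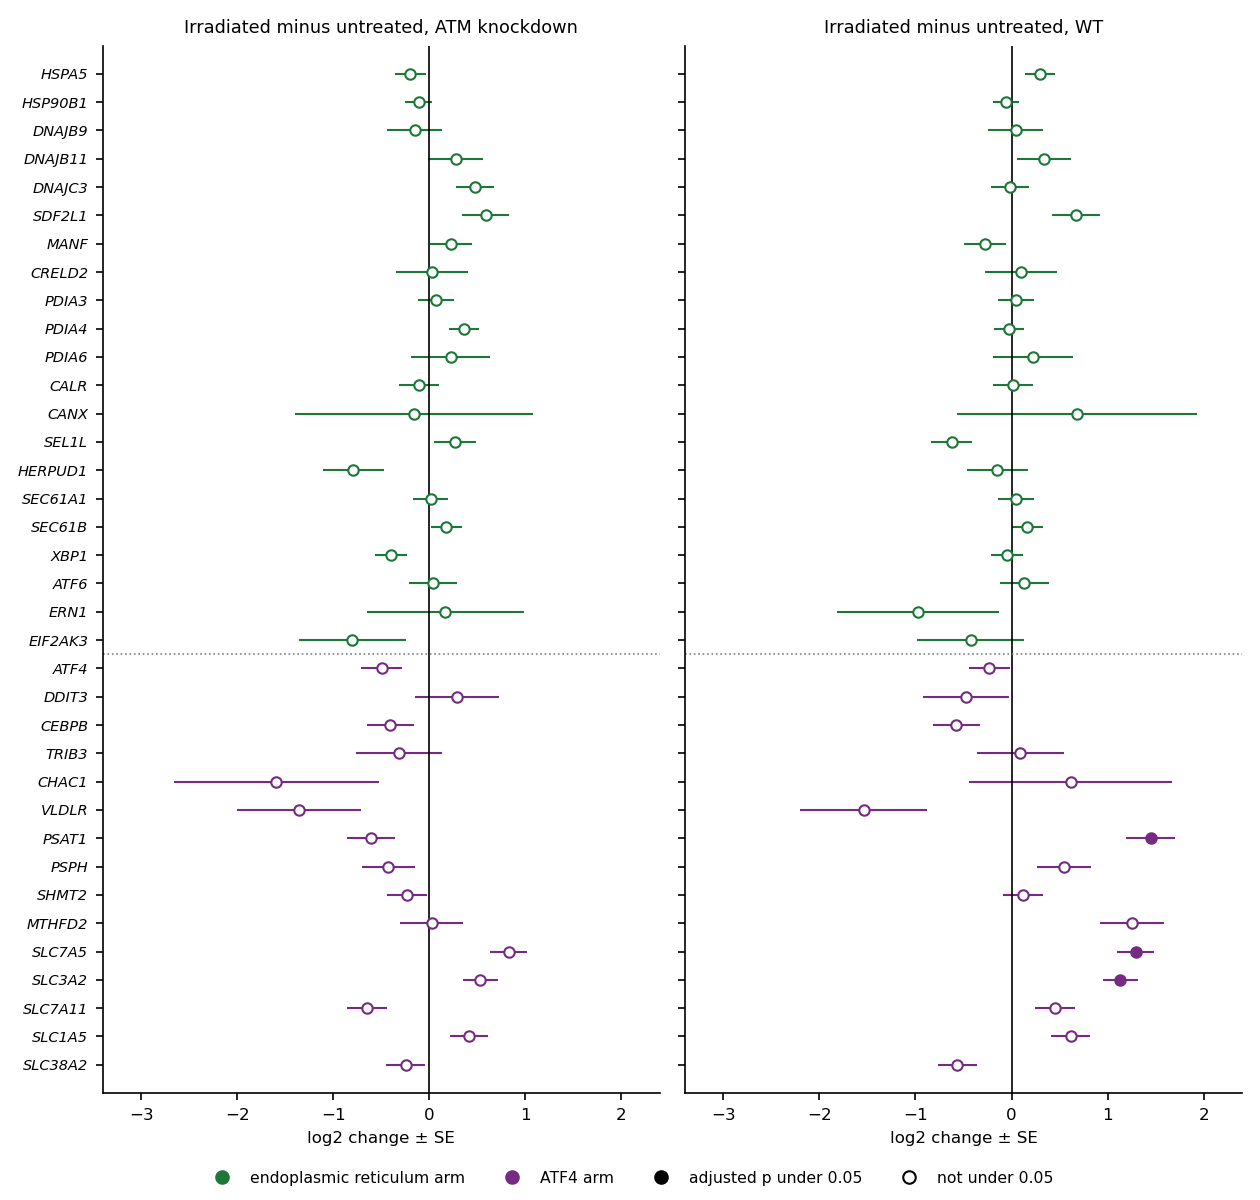
Log2 change with irradiation of 36 members in ATM knockdown (left) and WT (right) cells, with its SE from the fit of 8 libraries. The 3 filled points, PSAT1, SLC7A5 and SLC3A2 in WT cells, passed an adjusted p of 0.05; ASNS, PHGDH and ATF3, each at 0 in at least 1 library, are not drawn.

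Set side by side, the ER arm centred near 0 under irradiation in both genotypes and the ATF4 arm did not. The median log2 change with irradiation over the 21 tested ER arm members was 0.04 in knockdown and 0.04 in WT cells, and over 15 ATF4 arm members (without ASNS, PHGDH and ATF3, each at 0 in some library) -0.32 in knockdown and 0.45 in WT cells, beside 0.01 and -0.01 over all genes. With those 3 the ATF4 arm medians were -0.36 in knockdown and 0.50 in WT cells. Within the 15, the 4 synthesis enzymes had medians of -0.33 in knockdown and 0.90 in WT cells, the 5 transporters 0.41 and 0.62, and the 6 factors and effectors -0.45 and -0.35. Between genotypes the medians were 0.30 irradiated and 0.25 untreated in the ER arm, and 0.15 irradiated and 0.97 untreated in the ATF4 arm without those 3. The medians describe the members and carry no test.

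Other genes of these pathways, not members, were read the same way. These lists too were chosen with earlier results of these data known, so their counts beside the share of all genes are a description only. Of 41 tested genes of ER folding, translocation and degradation, 1 rose between irradiated knockdown and WT cells and 2 between untreated ones, with 0 lower and 0 called for irradiation in either genotype. These counts are near the share of all genes called higher (2.18% irradiated and 4.83% untreated). SYVN1 (HRD1, the ubiquitin ligase that SEL1L holds) rose by 1.08 (SE 0.30, adjusted p = 0.0471) irradiated and 0.97 (SE 0.29, adjusted p = 0.0489) untreated. EDEM1, a mannosidase-like degradation factor, rose by 0.81 (SE 0.24, adjusted p = 0.0496) untreated. For irradiation, 2 of these 41 genes had an unadjusted p under 0.05 in each genotype, beside 8.86% of all genes in knockdown and 13.9% in WT cells. Of 39 tested ATF4-linked genes, 15 were higher in untreated knockdown than untreated WT cells (4.83% of all genes), among them the tyrosyl-tRNA synthetase gene YARS by 1.87, the cationic amino acid transporter gene SLC7A1 by 1.84, the ATF4 partner CEBPG by 1.71 and the glutamyl-prolyl-tRNA synthetase gene EPRS by 1.05. IARS, MTHFD1L, PCK2 and PYCR1, of tRNA charging, folate metabolism, gluconeogenesis and proline synthesis, rose by 1.03, 1.95, 2.1 and 2.45. Between irradiated cells 4 were higher (2.18% of all genes), SLC7A1 by 1.31, NUPR1 by 1.91, EIF2AK4 (GCN2, the amino acid sensor kinase) by 0.87 and SLC38A1 by 0.81. With irradiation 2 of the 39 rose in WT cells (0.907% of all genes), YARS and CEBPG, by 1.03 (adjusted p = 0.0371) and 1.26 (adjusted p = 0.0353), and 0 passed in knockdown cells, where 2 had an unadjusted p under 0.05. DDIT4, an mTORC1 inhibitor, fell by 1.46 (SE 0.24, adjusted p = 0.00668) on average over both genotypes.

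**Figure D4:**
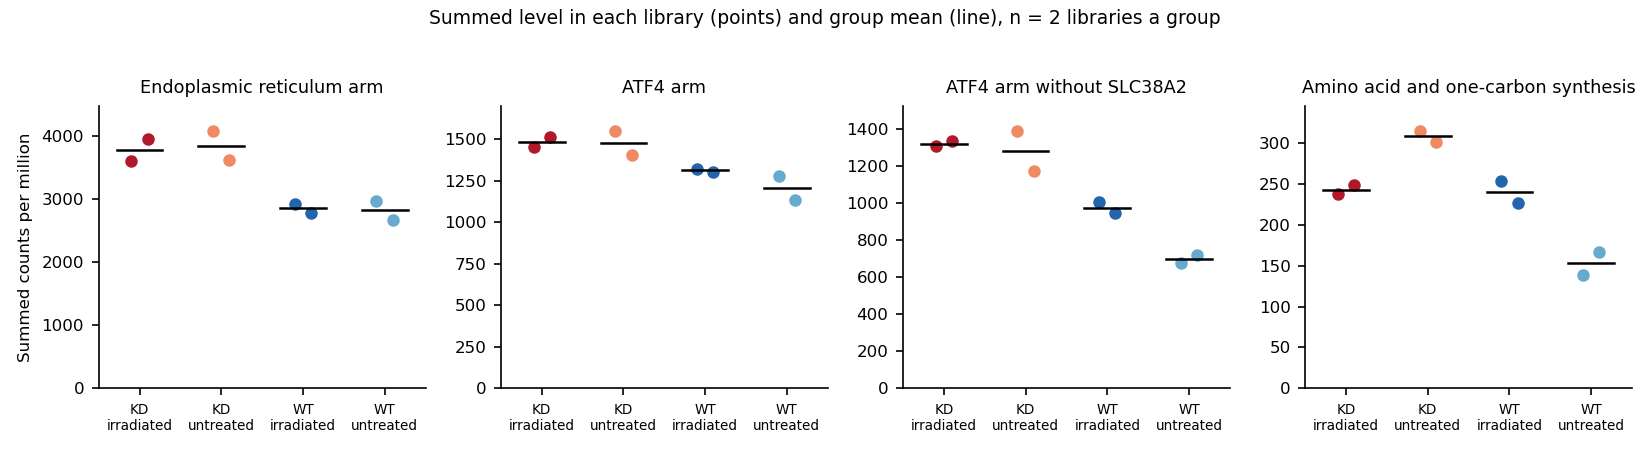
Summed level of each arm in each library (points, CPM, axes from 0) with the mean of the 2 libraries of a group (line). The ER arm separates the genotypes, 3603 to 4077 in knockdown against 2665 to 2975 in WT libraries, and without SLC38A2 the ATF4 arm is lowest in untreated WT libraries, at 679 and 720.4.

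Summed over its members, the ER arm took 3603 and 3960 CPM in irradiated knockdown, 4077 and 3620 in untreated knockdown, 2926 and 2785 in irradiated WT and 2975 and 2665 CPM in untreated WT libraries. The knockdown libraries did not overlap the WT libraries, and irradiated and untreated libraries of a genotype did overlap. The ATF4 arm took 1456 and 1516 CPM in irradiated knockdown, 1549 and 1403 in untreated knockdown, 1321 and 1305 in irradiated WT and 1276 and 1133 CPM in untreated WT libraries. The irradiated over untreated ratio of this sum was 1.01 in knockdown and 1.09 in WT cells, and the knockdown over WT ratio was 1.13 irradiated and 1.23 untreated. SLC38A2 held much of the sum in WT cells and moved against the other carriers. Without it the ATF4 arm took 1309 and 1337 CPM in irradiated knockdown, 1390 and 1173 in untreated knockdown, 1006 and 948 in irradiated WT and 679 and 720.4 CPM in untreated WT libraries. The irradiated over untreated ratio without SLC38A2 was 1.03 in knockdown and 1.40 in WT cells. The knockdown over WT ratio without SLC38A2, the most abundant ATF4 arm member, was 1.35 irradiated and 1.83 untreated. Without HSP90B1, its most abundant member, the ER arm had a knockdown over WT ratio of 1.36 irradiated and 1.41 untreated. With HSP90B1 the ratios were 1.32 irradiated and 1.36 untreated. The ER arm was not summed without HSPA5. Synthesis enzymes alone took 237 and 248 CPM in irradiated knockdown, 314 and 302 in untreated knockdown, 254 and 227 in irradiated WT and 139 and 167 CPM in untreated WT libraries, so that the irradiated libraries of the genotypes overlapped. The sums carry no test.

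Cells of a library were compared after thinning each to 50000 counts, which 341 of 363 kept cells reached; 2 irradiated knockdown, 9 untreated knockdown, 7 irradiated WT and 4 untreated WT cells did not. These are descriptions, since the cells of a library are not replicates, and the intervals (Wilson, 95%) cover the sampling of cells only. PSAT1 had a count in 72.1% and 70.7% of irradiated knockdown, 64.7% and 64.3% of untreated knockdown, 65.1% and 67.4% of irradiated WT and 33.3% and 42.55% of untreated WT cells of the libraries. The intervals of the irradiated WT libraries (50.2% to 77.6% and 53.0% to 79.1%) lie above that of untreated WT replicate 1 (21.4% to 47.9%) and overlap that of replicate 2 (29.5% to 56.7%). SLC7A5 had a median of 11 and 10 counts per cell in irradiated knockdown, 3 and 6.5 in untreated knockdown, 4 and 6 in irradiated WT and 2 and 2 in untreated WT libraries. SLC38A2 had medians of 5 and 6 in irradiated knockdown, 8 and 8.5 in untreated knockdown, 13 and 16 in irradiated WT and 26 and 18 in untreated WT libraries. ATF4 was detected in 62.8% and 78.05% of irradiated knockdown, 64.7% and 78.6% of untreated knockdown, 95.35% and 91.3% of irradiated WT and 80% and 89.4% of untreated WT cells.

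**Figure D5:**
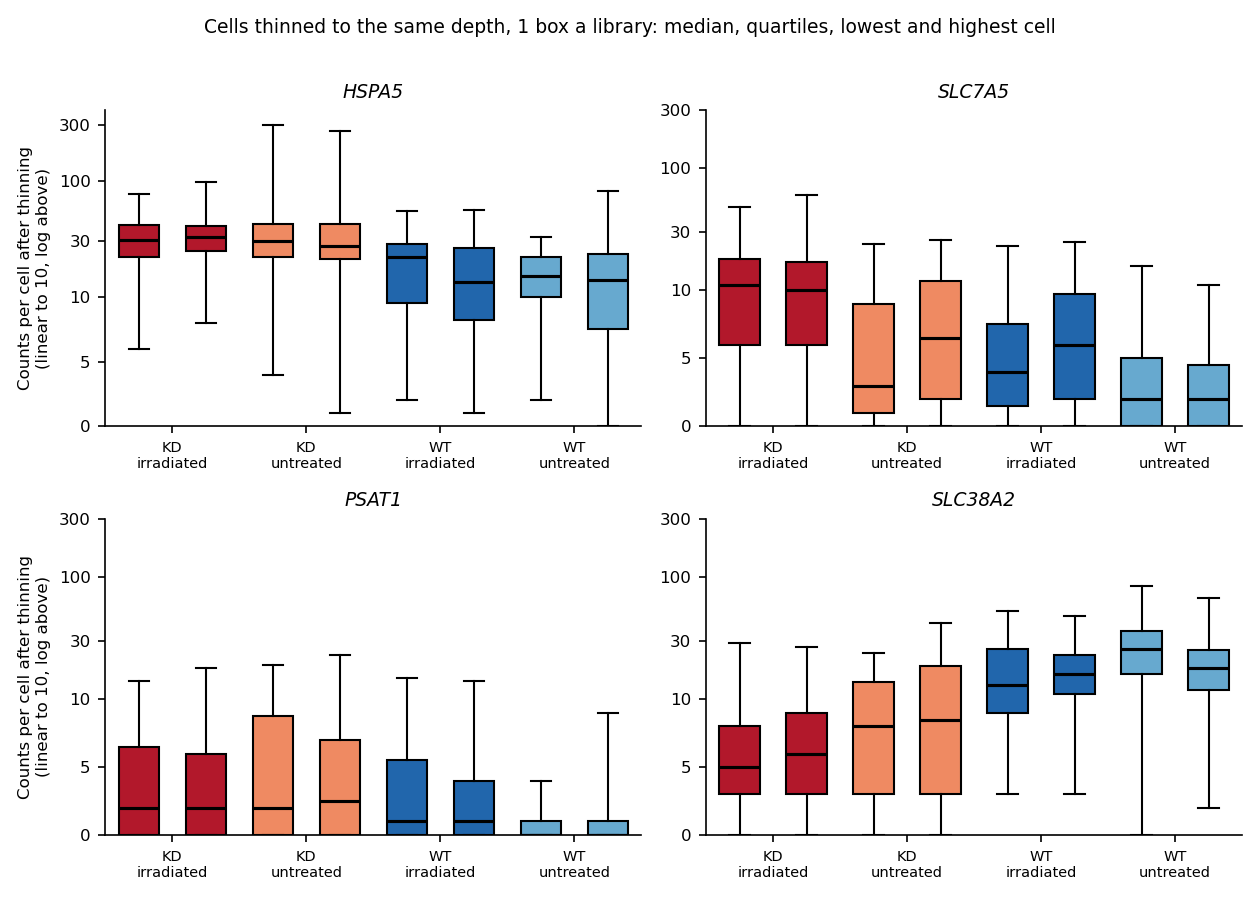
Counts per cell of 4 members after thinning to 50000 counts, 1 box a library (median line, quartile box, whiskers to the lowest and highest cell; axis linear to 10 and logarithmic above). Knockdown libraries have HSPA5 medians of 27.5 to 33 against 13.5 to 22 in WT libraries, and the cells at 300 and 266 are both from untreated knockdown libraries.

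The higher HSPA5 of knockdown cells was spread over the cells. The median cell had 31 and 33 HSPA5 counts in irradiated knockdown, 30 and 27.5 in untreated knockdown, 22 and 13.5 in irradiated WT and 15 and 14 in untreated WT libraries. Beside this, a few untreated knockdown cells stood far out. Their ER arm sum exceeded 2 times the library's median in 2 cells of untreated knockdown replicate 1 and 1 cell of replicate 2, and in 0 cells of the other 6 libraries. The highest cell of replicate 1 had an ER arm sum of 588 with 300 HSPA5 counts, and that of replicate 2 a sum of 831 with 266 HSPA5 counts, against library medians of 170.5 and 173.5. The ATF4 arm sums of these 2 cells were 84 and 138, against library medians of 58.5 and 58. Over the cells of a library the sums of the 2 arms had a rank correlation between -0.33 (untreated WT replicate 2) and 0.33 (irradiated knockdown replicate 1), negative in 3 of 4 WT and positive in all 4 knockdown libraries. At 20000 counts per cell 2 WT libraries were negative, and without the largest cells all 4 were. The 4 knockdown libraries were positive under both. Values of this size in sparse counts, over 34 to 47 cells that share a library, are given as a description only. HSPA5 with HSP90B1 gave 0.20 to 0.52, positive in all 8 libraries. Every other pair of genes read had both signs over the libraries. XBP1 with HSPA5 gave -0.19 to 0.32, and SLC7A5 with SLC3A2 gave -0.15 to 0.38. PSAT1 with SLC7A5 gave -0.005 to 0.53, ATF4 with SLC3A2 -0.003 to 0.35 and SLC38A2 with SLC7A5 -0.32 to 0.07.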

How the data were processed

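The deposited tables hold whole-number counts per coding gene and cell. The authors trimmed reads with Trimmomatic 0.36, used HISAT2 2.1.0 and HTSeq 0.9.1, and worked on hg38, per the submitters' processing notes, and used a modified Smart-seq2 with 3' libraries, per the labels' protocols. Whether the counts are reads or molecules, and whether strand was used, is not given in the sources used here, so overlapping genes and pseudogene copies add uncertainty. Genes that a table did not list were set to 0. Cells with at least 1000 genes and 5000 counts were kept and summed per library, and edgeR 4.0.16 (R 4.3.3; filterByExpr, TMM, quasi-likelihood, 4 groups in 1 fit, 4 residual degrees of freedom) tested 12456 genes. The SE is the size of a log2 change over the square root of its F statistic. On simulated data for irradiation in WT cells (12178 genes) 54% of 2-fold and 100% of 4-fold changes were recovered with 7 false calls. Only well-expressed genes were given changes there, 200 genes whose average log2 CPM was 5 or more. These shares are not figures for members with few counts. Limma 3.58.1 (log2 of mean CPM per cell plus 1) and DESeq2 1.42.0 were alternatives. The largest cells are those above 2 times their library's median total. Python 3.11.15, numpy 2.4.6, pandas 2.3.3, scipy 1.17.1 and matplotlib 3.10.9 were used, with GENCODE 29 annotation, whose versioned IDs 36 of the 39 listed members matched. Replicate libraries of a group differed beyond counting noise, which copies made by PCR would also exceed, and libraries shared 0 barcodes. Values per library are given for each member past the threshold and for a set list (such as HSPA5, ATF4 and ASNS), others by range, and further pathway genes past the threshold, at most 8 a contrast by smallest p. CEBPB and VLDLR were named beyond that. The members and lists were chosen with earlier results of these data known.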

Additional observations from a re-analysis of the deposited data

Results flagged for a closer look

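By edgeR's interaction term PSAT1 was the member whose irradiation effect passed for a difference between genotypes. The effect in knockdown minus that in WT cells was -2.06 on the log2 scale (SE 0.36, adjusted p = 0.0345, edgeR's quasi-likelihood test). The irradiated libraries were lower than the untreated ones in both knockdown replicates and higher in both WT replicates. Over the 17 alternatives the difference lay between -2.43 and -1.14, and it did not pass in 2 of them, by limma on the mean CPM per cell (adjusted p = 0.191) and without the largest cells (0.460). The difference for SLC7A11, -1.09, did not pass (adjusted p = 0.221) but did by DESeq2 (0.0217).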

How the results depend on the processing

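No paired analysis was possible because the labels give no replicate numbers that tie libraries of different groups to each other. Of the 25 calls of members, 10 were kept under all alternatives run, 15 were lost under at least 1 and 0 reversed. The kept calls were HSPA5, XBP1, PSAT1, SLC7A5, SLC3A2, SLC1A5 and SLC38A2 between untreated knockdown and WT cells, SLC38A2 between irradiated ones, and SLC7A5 and SLC3A2 for irradiation averaged over genotypes. With no filter on low counts, 1 member passed for irradiation in knockdown, 5 in WT cells, 6 on average and 3 for the difference of effects. There 236, 534, 580 and 195 genes passed in all, against 28, 205, 186 and 23 in the shared fit. DESeq2's Wald test called 1 in knockdown, 6 on average, 2 for the difference and 10 between irradiated genotypes. It called 177, 558, 159 and 1106 genes in all, against 28, 186, 23 and 635 in the shared fit. Members gained in these 2 settings thus came with more calls over all genes. Limma on the mean CPM per cell called 1 in knockdown and 0 for the difference, of 122 and 25 genes in all. Fits of the compared groups alone called 1 member in knockdown and 0 in WT cells, where 33 genes passed in all against 205 in the shared fit. Without the largest cells 1 passed in knockdown, 1 in WT cells and 0 for the difference, of 68, 130 and 26 genes in all. A minimum average log2 CPM of 5 gave 10 between irradiated genotypes, of 774 genes in all. Leaving out each library in turn gave 0 to 1 members for irradiation in knockdown, 3 to 5 in WT cells, 2 to 4 on average, 1 to 2 for the difference, 1 to 7 between irradiated genotypes and 8 to 14 between untreated ones. The number of genes called in all moved in these fits too, so the ranges cannot be read as behaviour of the members alone. The cause of these changes was not tested. The alternative scalings moved the all-gene median change by 0.0698 on the log2 scale at most. CANX, CHAC1, ERN1, PHGDH and ASNS had few counts, which limits their precision. The simulated 2-fold changes, of which 54% were recovered, were all in genes whose average log2 CPM was 5 or more. That share cannot be applied to members with few counts. For them the share of changes missed is not known. An absent call does not show that a member was alike in 2 groups.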
